A study of Mus musculus with 16 samples.

Results

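The genes described here build or supply cilia, and they were followed in the hypothalamus of weanling mice that had been underfed during lactation. The set held every gene on the array whose symbol starts with Dnah, Dnai, Dnaic, Rsph, Tekt, Bbs or Ift followed by a digit, together with Foxj1, Tmem212, Ccdc39, Ccdc40, Arl13b and Cep290 where the array named them. It came to 36 genes of the 16593 named on the array, of which 14 belonged to the motile axoneme and 22 to ciliary transport and the ciliary base. Tmem212 and Arl13b were not matched to a named probe and were not analysed here. A member was tested when its probe had a detection p-value under 0.05 on at least 8 of the 16 arrays. This left 26 members, 7 motile and 19 transport genes, and no tested member passed the filter through 1 group alone.

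All animals were female F1 mice of the C57BL/6J strain aged 21 days, with 8 mice in each group and 1 Illumina MouseRef-8 v2 array per mouse. Control mice (CON) were raised with food ad libitum, whereas in the lactation under-nutrition group (LUN) the ration from birth to weaning was 50% of what control animals had eaten a day earlier. By the study's methods the restriction reached the pups through the mother, so it acted on mother and pups together. The study's methods give fewer CON litters than the 8 CON mice, so some CON mice shared a litter. Which mice were littermates was not stated. The p-values treat mice as independent, so they may be too small. The hypothalamus was dissected as a block around the third ventricle, and in such bulk tissue fewer cells of a type and less RNA per cell cannot be told apart.

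Cilia are built around an axoneme of microtubule doublets. In motile cilia, such as those with which ependymal cells move cerebrospinal fluid along the ventricles, the doublets carry dynein arms, radial spokes and tektins. Most neurons and astrocytes have instead a single primary cilium, which lacks these parts and carries receptors. Both kinds are assembled by intraflagellar transport (IFT), in which IFT-B and IFT-A protein complexes carry cargo along the axoneme, and the BBSome, a complex of Bardet-Biedl syndrome proteins, moves membrane proteins in and out.

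Mean raw signal was 451 ± 35.2 (SD, n = 8) on the CON arrays and 377 ± 23.6 (SD, n = 8) on the LUN arrays, with 14560 to 15384 probes detected per CON array and 14540 to 15051 per LUN array. Each of the 2 BeadChips held 4 arrays of each group, with CON arrays in the first positions and LUN arrays in the last, so position and group cannot be told apart. The number of arrays limits the precision of every value. The hypothalamic peptide genes Pmch, Hcrt, Oxt, Avp, Npy, Sst and Trh were detected on all 16 arrays and Pomc on 8, and Agrp was not matched to a named probe. Array LUN 7 stood apart in choroid plexus genes, and arrays CON 4 and CON 8 differed from the other CON arrays in thalamic genes, so results are given below with and without these arrays where they move a call. Levels are background-corrected, quantile-normalized log2 signals, on which a difference of 1 is a 2-fold change, and all changes are LUN minus CON. They are relative to the other genes of the array. The LUN arrays were dimmer, and the median change of all genes was -0.0092 here, -0.10 with median scaling and -0.26 with no scaling. A gene is said to have risen or fallen only at an adjusted p under 0.05, from limma with Benjamini-Hochberg adjustment over all 14870 tested probes.

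Of the 26 tested members, Ift57 and Bbs1 rose in LUN mice and the radial spoke gene Rsph9 fell. Their promoters, of 300 bases each, are shown because these are the members that passed the test, and because many ciliary genes are known to be controlled by RFX factors, which bind the X-box, and by FOXJ1. The windows run from 250 bases before to 50 after the RefSeq start on GRCm38.p6: chr16:49699044-49699343 on the plus strand for Ift57, chr19:4906578-4906877 on the minus strand for Bbs1 and chr17:46144151-46144450 on the minus strand for Rsph9. Capitals mark matches to the X-box letters and to the RFX half-site.
Ift57: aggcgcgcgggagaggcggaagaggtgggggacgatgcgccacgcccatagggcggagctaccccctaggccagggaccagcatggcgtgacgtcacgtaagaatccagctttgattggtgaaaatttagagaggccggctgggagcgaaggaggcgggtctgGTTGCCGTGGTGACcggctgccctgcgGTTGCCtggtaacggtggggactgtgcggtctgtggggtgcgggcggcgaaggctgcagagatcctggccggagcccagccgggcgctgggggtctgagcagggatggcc
Bbs1: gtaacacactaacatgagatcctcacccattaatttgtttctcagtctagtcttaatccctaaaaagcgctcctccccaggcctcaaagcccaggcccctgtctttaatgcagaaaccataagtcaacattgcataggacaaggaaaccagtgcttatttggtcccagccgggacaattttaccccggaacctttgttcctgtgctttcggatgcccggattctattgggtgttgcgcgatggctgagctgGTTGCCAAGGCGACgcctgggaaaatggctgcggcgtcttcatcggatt
Rsph9: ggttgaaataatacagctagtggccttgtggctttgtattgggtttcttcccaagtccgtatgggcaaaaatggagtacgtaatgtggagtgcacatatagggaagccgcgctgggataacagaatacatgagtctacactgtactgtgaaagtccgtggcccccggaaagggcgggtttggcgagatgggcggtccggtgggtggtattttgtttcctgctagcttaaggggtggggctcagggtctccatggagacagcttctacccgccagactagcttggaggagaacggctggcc
The X-box was searched on both strands as GT, any 2 bases, CC, any 3 bases, G, any 1 base and AAC, the half-site as GTTGCC or GGCAAC, and a forkhead motif as GTAAACA or TGTTTAC. In Ift57 the X-box began at position -87 from the start, with a second half-site nearer to the start. In Bbs1 the X-box began at position 2, and in both genes the first half-site lay inside the X-box. The Rsph9 window held none of these letters.

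Windows were found for 31 of the 36 members. The X-box letters were in 5 of 19 transport genes and 0 of 12 motile genes, against 2.49% of 27025 mouse genes with such windows. Where a gene had several windows, a match in any of them was counted. The 5 transport genes were Ift57, Bbs1, Ift22, Bbs4 and Bbs7, and their changes ran from a rise to a value below 0: 0.52, 0.31, -0.10, -0.01 and 0.06, in that order, so the letters were also present in members that did not pass the test. The half-site was in 8 transport genes and in 1 motile gene, Tekt1, against 14.1% of genes. The forkhead letters were in 1 motile gene, Tekt3, and in 0 transport genes, against 4.05% of genes. A match describes the sequence and is not a measured binding site.

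The first question was whether the motile axoneme genes differed between LUN and CON hypothalami. Foxj1, the transcription factor that switches on the motile cilium programme, had nearly the same mean in both groups. It was detected on all 16 arrays, with a lowest, median and highest level of 5.59, 5.69 and 5.97 in CON mice and 5.40, 5.78 and 5.92 in LUN mice. The groups overlapped almost entirely. The change was -0.0018 with a 95% confidence interval of -0.16 to 0.15 (adjusted p = 0.99, limma).

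The 3 tested radial spoke genes were all lower on average in LUN mice, and 1 of them passed the test. Radial spokes link the outer doublets to the central pair of a motile axoneme, and RSPH9 and RSPH1 are proteins of the spoke head. Rsph9 had a lowest, median and highest level of 7.56, 7.91 and 8.02 in CON mice and 7.21, 7.63 and 7.78 in LUN mice. All 8 LUN mice lay below the CON median and 2 below the lowest CON mouse, so the groups overlapped. The means were 7.86 ± 0.17 and 7.60 ± 0.18 (SD, n = 8 each), a fall of -0.26 ± 0.08 (SE) or 1.20-fold (adjusted p = 0.045, limma).

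Rsph9 lay close to the threshold. Its change was -0.40 on BeadChip 1 and -0.12 on BeadChip 2, and its lowest value, in LUN 2, stood apart from the other LUN mice. With single arrays left out it passed in 4 of 16 fits (without CON 4, CON 8, LUN 5 or LUN 6), with adjusted p-values from 0.015 to 0.084 over the 16.

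Rsph1 had the largest measured difference of the 7 motile genes but did not pass. Its levels were 8.07, 8.37 and 8.72 (lowest, median, highest) in CON mice and 7.69, 8.09 and 8.49 in LUN mice. In this gene 7 of 8 LUN mice were below the CON median and 4 below every CON mouse. The exception among LUN mice was LUN 7, at 8.49, and the lowest CON mouse was CON 8. The difference was -0.32 ± 0.11 (SE; adjusted p = 0.056, limma), with -0.43 on BeadChip 1 and -0.21 on BeadChip 2. With single arrays left out Rsph1 passed in 2 of 16 fits, with adjusted p-values from 0.022 to 0.11 over the 16. Those 2 left out the highest LUN or the lowest CON mouse: -0.38 without LUN 7 (adjusted p = 0.022) and -0.36 without CON 8 (adjusted p = 0.028).

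Rsph3a, a spoke stalk gene, differed by less, -0.12 ± 0.08 (SE; adjusted p = 0.32, limma). Its CON levels spanned 7.53 to 7.76 and its LUN levels 7.11 to 7.79, so 3 LUN mice lay below every CON mouse while 1 lay above all of them.

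Tekt1 encodes a tektin, a filament protein bound to the doublet microtubules. Its levels were 6.07, 6.40 and 6.58 (lowest, median, highest) in CON mice and 5.98, 6.19 and 6.59 in LUN mice. Here too 7 of 8 LUN mice were below the CON median, and LUN 7 was above every CON mouse. The difference of -0.18 ± 0.09 (SE) did not pass (adjusted p = 0.16, limma), and it was -0.37 on BeadChip 1 but 0.0011 on BeadChip 2. With single arrays left out Tekt1 passed in 1 of 16 fits, without LUN 7, where it fell by 0.24 (adjusted p = 0.043). Over the 16 fits its adjusted p-values ran from 0.043 to 0.27. A second Tekt1 probe gave -0.13 (adjusted p = 0.41), with -0.05 and -0.20 on the BeadChips, and on that probe the highest LUN mouse was LUN 2.

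Dnaic1 and Ccdc39 had means that were higher in LUN mice, a direction that rests on the scaling. Dnaic1, which encodes an outer arm dynein intermediate chain, had levels of 7.75 to 8.08 in CON mice and 7.73 to 8.13 in LUN mice and differed by 0.05 ± 0.06 (SE; adjusted p = 0.61, limma), with 0.02 on its second probe. Ccdc39, part of the molecular ruler that spaces dyneins and spokes along the doublet, spanned 5.77 to 6.22 in CON mice and 5.80 to 6.41 in LUN mice. Its difference was 0.12 ± 0.09 (SE; adjusted p = 0.39, limma). With median scaling the difference was -0.07 for Dnaic1 and 0.06 for Ccdc39, and with no scaling it was -0.23 for Dnaic1 and -0.094 for Ccdc39.

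**Figure D1:**
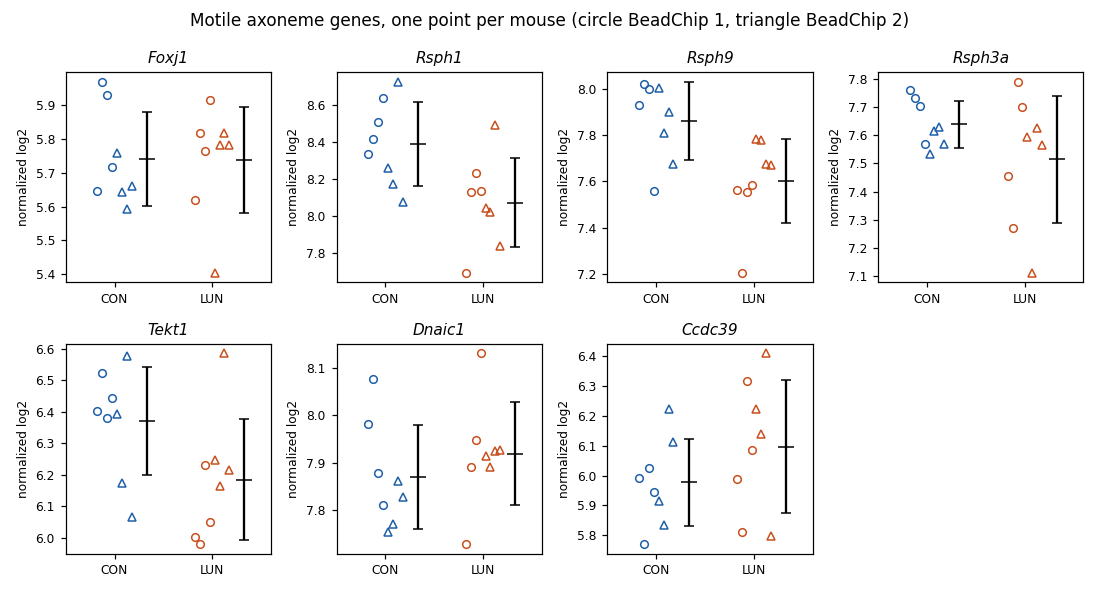
Normalized log2 signal (vertical axes) of the 7 tested motile axoneme genes in each CON and LUN mouse, with circles for BeadChip 1, triangles for BeadChip 2 and black bars for the mean ± SD (n = 8). Every LUN mouse lies below the CON median for Rsph9, while Foxj1 spans 5.59 to 5.97 in CON mice and 5.40 to 5.92 in LUN mice.

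In all, 1 of 7 tested motile genes fell and 0 rose, none reached a 1.5-fold change in the main setting (Rsph1 did with no scaling, at -0.60), and none had groups that did not overlap. Over all 10244 genes tested with 1 probe each, 8.59% fell and 7.17% rose, 0.547% fell and 0.84% rose by at least 1.5-fold, and 1.32% had all LUN mice below all CON mice. One gene of 7 is near that background. At an unadjusted p under 0.05, 3 of the 7 were lower and 0 higher. The share of all genes at that unadjusted p was not counted, so such counts, here and below, are not read as an excess. The median change of the 7 was -0.12 with 5 of 7 below 0, beside a median of -0.0092 with 52.9% below 0 over all genes. This motile median was -0.14 on BeadChip 1 alone but 0.0011 on BeadChip 2 alone. The within-group SD of the motile genes had a median of 0.18, above the 0.14 of all genes, so a change of the size seen in Rsph9 was near the limit of what 8 mice per group could show. In simulated data 58% of changes of -0.3 and 96% of changes of -0.6 were recovered. There 200 of the 14870 probes, drawn from all tested ones, were changed, whereas 15.8% of genes passed in the data. These shares need not hold for the motile genes.

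The remaining 7 motile members were not tested. Ccdc40, the partner of CCDC39, the dynein heavy chain genes Dnah5 and Dnah11 and the spoke gene Rsph6a were detected on 0 arrays. Dnah2 was detected on 4 CON and 3 LUN arrays, Dnah8 on 1 CON array and Tekt3 on 1 LUN array. At this sensitivity none of the axonemal heavy chains, the motors of ciliary beating, could be compared.

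**Figure D2:**
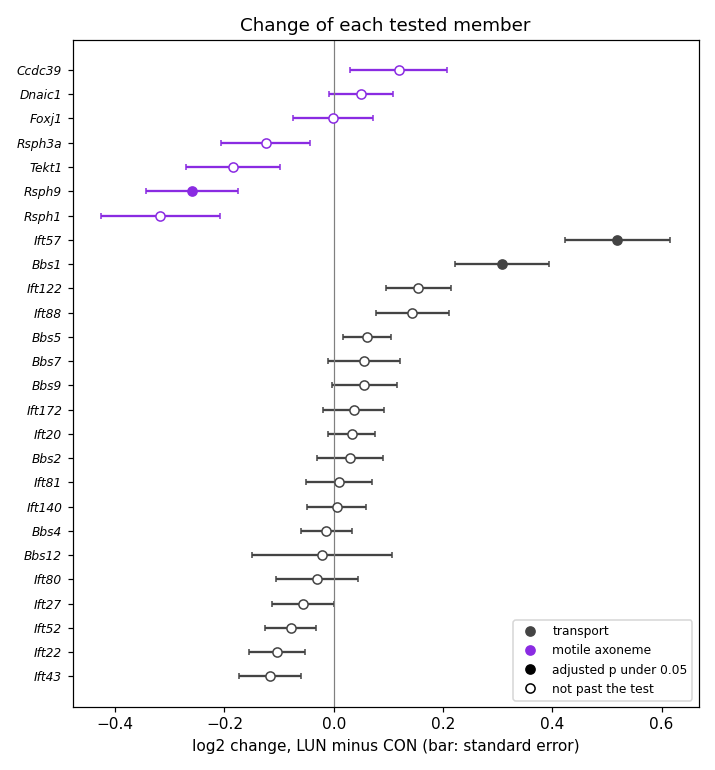
Change in quantile-normalized log2 signal (LUN minus CON, horizontal axis) with its standard error for the 26 tested members, filled where the adjusted p is under 0.05. Ift57 at 0.52, Bbs1 at 0.31 and Rsph9 at -0.26 are filled, and most transport genes lie close to 0.

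Ift57 encodes an IFT-B subunit of the peripheral part of the complex, and it had the largest change of all 26 members. Its lowest, median and highest levels were 5.63, 6.02 and 6.24 in CON mice and 6.12, 6.55 and 6.75 in LUN mice. Only LUN 4, the lowest LUN mouse, fell within the CON range, and the other 7 were above every CON mouse. The means were 5.99 ± 0.18 and 6.51 ± 0.23 (SD, n = 8 each), a rise of 0.52 ± 0.10 (SE) or 43.3% (adjusted p = 0.0022, limma). The change was 0.41 and 0.63 on the BeadChips, and it passed in all 16 fits with 1 array left out (adjusted p from 0.00098 to 0.0055).

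The Ift57 value rests on 1 of 4 probes, since the other 3 were detected on 0, 0 and 1 arrays. Mean raw signal of the tested probe was 114 in CON mice and 126 in LUN mice, on arrays whose lowest signals were 37.7 to 43.9. The size of the rise moved with the processing of such dim signals. It was 0.36 with an offset of 50 and 0.67, which is over 1.5-fold, in the deposited log2 values. The study lists Ift57 in a functional category drawn from these samples, so the rise is not independent evidence.

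The other IFT-B genes had smaller differences, and none of them passed. Ift88, needed for assembly of nearly all cilia, had levels of 7.42 to 7.65 in CON mice and 7.46 to 7.95 in LUN mice, with 3 LUN mice above every CON mouse. Its difference was 0.14 ± 0.07 (SE; adjusted p = 0.16, limma), and -0.13 with no scaling between arrays. Ift22, a small GTPase of the complex, went the other way, with 8.20 to 8.53 in CON mice and 8.19 to 8.35 in LUN mice and a difference of -0.10 (adjusted p = 0.18). In Ift22 all 8 LUN mice were below the CON median.

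The brightest tested transport probe was that of Ift20, which also works at the Golgi, with levels of 10.77 to 10.98 in CON mice and 10.77 to 10.98 in LUN mice and a difference of 0.03 ± 0.04 (SE; adjusted p = 0.66, limma). The differences of the others were -0.08 for Ift52, -0.06 for Ift27, -0.03 for Ift80, 0.0095 for Ift81 and 0.04 for Ift172. Ift46 (1 LUN array) and Ift74 (2 CON and 4 LUN arrays) were detected too rarely to be tested. Of 9 tested IFT-B genes 1 rose and 0 fell, with a median of 0.0095.

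The 3 genes of IFT-A, which carries cargo back to the ciliary base, had no member past the test. Ift122 was the nearest, at 7.58, 7.68 and 7.91 (lowest, median, highest) in CON mice and 7.71, 7.84 and 8.04 in LUN mice. All 8 LUN mice were above the CON median. The difference was 0.15 ± 0.06 (SE; adjusted p = 0.089, limma), and with single arrays left out it passed in 1 of 16 fits, without CON 5 (0.18, adjusted p = 0.046). With no scaling between arrays it was -0.12. Ift43 was lower, by estimate -0.12 ± 0.06 (SE; adjusted p = 0.18, limma), with all 8 LUN mice below the CON median, and Ift140 differed by 0.0050.

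Among the BBSome genes Bbs1, whose product binds the small GTPase ARL6 that brings the complex to membranes, rose. Its lowest, median and highest levels were 5.36, 5.78 and 5.91 in CON mice and 5.85, 6.01 and 6.18 in LUN mice. Of the LUN mice 6 of 8 were above every CON mouse and all 8 above the CON median. The means were 5.70 ± 0.23 and 6.00 ± 0.11 (SD, n = 8 each), a rise of 0.31 ± 0.09 (SE) or 23.8% (adjusted p = 0.021, limma). It was 0.33 and 0.28 on the BeadChips and passed in all 16 fits with 1 array left out (adjusted p from 0.016 to 0.043).

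The lowest Bbs1 values of the CON group were in CON 3 and CON 8, at 5.36 and 5.36. Without CON 4 and CON 8 the difference was 0.24 (adjusted p = 0.051), whereas Ift57 then rose by 0.58 (adjusted p = 0.0010). Mean raw signal of the Bbs1 probe was 101 in both groups, so its rise is relative to the other probes of each array, and with no scaling between arrays it was 0.11 (adjusted p = 0.32).

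The other 5 BBSome genes differed by 0.06 for Bbs5, 0.06 for Bbs7, 0.06 for Bbs9, 0.03 for Bbs2 and -0.01 for Bbs4, with adjusted p-values above the threshold in each. With median scaling and with no scaling all 5 were below 0. Bbs4, one of the brighter transport probes, spanned 10.50 to 10.66 in CON mice and 10.43 to 10.70 in LUN mice. Averaged over the 6 genes the level was 8.58 ± 0.06 in CON and 8.66 ± 0.03 in LUN mice (SD, n = 8 each), from 8.49 to 8.65 and from 8.64 to 8.72. This average includes Bbs1, whose change of 0.31 was the largest of the 6. Bbs12, a chaperonin-like protein that helps assemble the BBSome, was detected on 6 arrays of each group and differed by -0.02. Cep290, a protein of the transition zone at the ciliary base, was detected on 0 arrays.

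**Figure D3:**
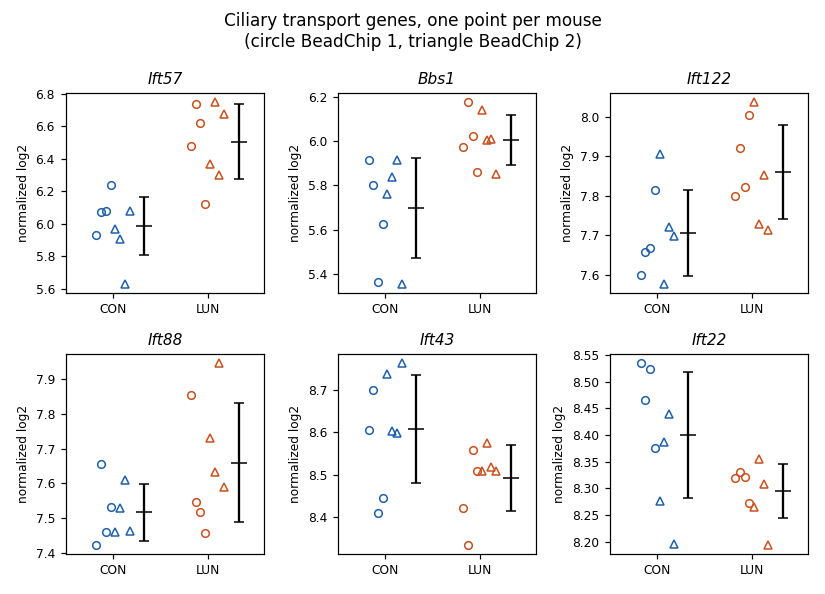
Normalized log2 signal (vertical axes) of Ift57, Bbs1, Ift122, Ift88, Ift43 and Ift22 in each CON and LUN mouse, with circles for BeadChip 1, triangles for BeadChip 2 and black bars for the mean ± SD (n = 8). In Ift57 7 LUN mice lie above every CON mouse and in Bbs1 6 do, whereas all 8 LUN mice lie below the CON median in Ift43 and Ift22.

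Of the 19 tested transport members 2 rose and 0 fell, beside 7.17% rising and 8.59% falling over all genes, and no member reached a 1.5-fold change in this setting. With so few genes the count is near the background. At an unadjusted p under 0.05, 4 were higher and 0 lower, again with no share of all genes to set beside them. Their median change was 0.03, with 7 of 19 below 0, but -0.098 with median scaling and -0.25 with no scaling. In the main setting the 17 members that did not pass ranged from -0.12 to 0.15. The within-group SD of these genes had a median of 0.11, below the 0.18 of the motile genes. The medians of the motile and the transport genes differed in sign with quantile normalization and were both below 0 with the other scalings, and the difference between the classes was not tested.

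Further genes of the same structures were followed as lists. Of 29 other motile axoneme genes 2 fell and 0 rose, which is near the 8.59% falling and 7.17% rising over all genes. Their median change was -0.03 with 19 of 29 below 0, beside -0.0092 and 52.9% over all genes. Tppp3, a tubulin-binding protein also found outside cilia, had levels of 8.55, 8.60 and 8.74 (lowest, median, highest) in CON mice and 8.10, 8.36 and 8.49 in LUN mice. Every LUN mouse was below every CON mouse, as in 1.32% of all genes, and the fall was -0.30 ± 0.06 (SE; adjusted p = 0.0030, limma). Dnali1, a light intermediate chain of the axonemal inner dynein arms, fell by 0.31 ± 0.09 (SE; adjusted p = 0.024). Its levels overlapped, at 5.29 to 5.84 in CON mice and 5.04 to 5.69 in LUN mice.

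Spag17, Dnaaf4, Cfap300 and Ropn1l of this list were detected on 0 arrays. Of 6 tested genes of the multiciliation programme, the regulators that make a cell build many cilia, 0 rose and 0 fell in limma, also at an unadjusted p under 0.05, with a median of 0.04, and Mcidas, Myb, Deup1, Trp73 and Foxn4 were detected on 0 arrays.

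Of 13 other transport genes 1 rose and 2 fell, with a median of -0.06. Over all genes 7.17% rose and 8.59% fell, and with so few genes the count is not read as an excess. Those that passed included 2 subunits of the kinesin-II motor, which drives transport towards the ciliary tip and also carries cargo in axons, and they moved in opposite directions. Kif3a, a motor subunit, fell by 0.28 ± 0.07 (SE; adjusted p = 0.0099, limma) with CON levels of 11.01 to 11.40 and LUN levels of 10.74 to 11.10. Kifap3, the accessory subunit, rose by 0.14 ± 0.04 (SE; adjusted p = 0.014), from 11.79 to 11.88 in CON mice against 11.91 to 12.02 in LUN mice, with no overlap. Over all genes 0.927% had every LUN mouse above every CON mouse. Dync2li1, a chain of the dynein that returns IFT trains, fell by 0.14 (adjusted p = 0.047) and lay at the threshold. The number of genes of the list that fell was still 2 without CON 1, CON 4, CON 8 or LUN 3 and was 1 without any other single array.

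Of 19 genes of the basal body and transition zone 3 rose and 1 fell, with a median of -0.04. Over all genes 7.17% rose and 8.59% fell, and with so few genes the count is not read as an excess. Tctn3, a tectonic protein of the transition zone, rose by 0.34 ± 0.06 (SE; adjusted p = 0.0015, limma), from levels of 8.61 to 8.90 in CON mice to 8.94 to 9.30 in LUN mice, with no overlap. Ccp110, a centriolar cap protein that holds back cilium formation, rose by 0.21 (adjusted p = 0.019), and Lca5, known from the photoreceptor cilium, rose by 0.21 (adjusted p = 0.027). Tmem216, a transition zone membrane protein, fell by 0.24 (adjusted p = 0.0088), from 7.78 to 8.04 in CON mice to 7.49 to 7.84 in LUN mice.

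Of 9 genes for receptors and signalling proteins of primary cilia, 1 fell and 0 rose, near the 8.59% falling and 7.17% rising over all genes. The gene that fell was Mc4r, the melanocortin receptor of appetite-controlling neurons. It had levels of 5.38, 5.61 and 5.89 (lowest, median, highest) in CON mice and 5.22, 5.37 and 5.54 in LUN mice. Mc4r fell by 0.24 ± 0.07 (SE; adjusted p = 0.021, limma). Its groups overlapped. Sstr3, Prlhr, Gli1 and Gli3 were detected on 0 arrays. The split of these lists into rises and falls moved with the scaling. With median scaling 6 other motile genes fell, 6 other transport genes fell and 0 rose, 6 basal body and transition zone genes fell and 1 rose, and 2 receptor and signalling genes fell.

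Markers of the cells that could carry these cilia were read on the same arrays. Of 9 tested ependymal markers outside the member and axoneme lists 3 fell and 1 rose, beside 8.59% falling and 7.17% rising over all genes. Their median change was -0.26, with 8 of 9 below 0. Rarres2, which encodes chemerin and is high in tanycytes as well, fell by 0.47 ± 0.09 (SE; adjusted p = 0.0020, limma), from 7.90 to 8.36 in CON mice to 7.40 to 7.99 in LUN mice. Mia fell by 0.36 (adjusted p = 0.048) and Vim, for the filament vimentin of ependyma, tanycytes and vessels, by 0.26 (adjusted p = 0.033), while Sox9, a factor of astrocytes and ependyma, rose by 0.30 (adjusted p = 0.017). The number that fell was between 1 and 4 with single arrays left out, and it was 1 without CON 2, CON 3, CON 6, LUN 1, LUN 5 or LUN 6. With median scaling 7 fell and 0 rose. The mean level of the list was 8.18 to 8.50 in CON mice and 8.05 to 8.33 in LUN mice, with Zbbx detected on 0 arrays. Of 8 tanycyte genes 1 rose, Fgf10 by 0.30 (adjusted p = 0.018), and 0 fell, and none rose with median scaling. The part of these cells in the axoneme values was not tested.

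The epithelium of the choroid plexus also bears cilia and lies in the ventricles. Of its 15 markers on the array 10 were tested in limma, and 0 rose and 0 fell, with 1 higher and 0 lower at an unadjusted p under 0.05. With single arrays left out 1 rose without CON 4, CON 8, LUN 5 or LUN 8, and 1 fell without LUN 7. Their mean level was 6.45 to 7.02 in CON mice and 6.46 to 8.16 in LUN mice, the highest in LUN 7. Ttr, the abundant transthyretin gene, spanned 6.17 to 10.70 in CON mice and 7.64 to 14.19 in LUN mice, and its difference of 1.52 ± 0.90 (SE) did not pass (adjusted p = 0.27, limma). LUN 7 held the highest Ttr value, and it was the highest LUN mouse in 3 of the 7 motile genes, Rsph1, Tekt1 and Ccdc39. The part of choroid tissue in these genes was not tested.

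For each array a score was taken as the mean deviation of a list's genes from their average over 16 arrays. The score of the 7 motile members was -0.21 and -0.20 in LUN 1 and LUN 2, 0.15 in LUN 7 and between -0.10 and 0.05 in the other LUN mice. In CON mice it lay between -0.07, in CON 8, and 0.15. The choroid score was 1.40 in LUN 7 and 0.44 in LUN 1, so the 2 LUN mice with the highest choroid scores had the highest and the lowest motile scores of the group. The 29 other motile genes scored highest in LUN 7, at 0.21, and lowest in LUN 8, at -0.19, with LUN 1 at -0.17 and CON 8 at -0.16.

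**Figure D4:**
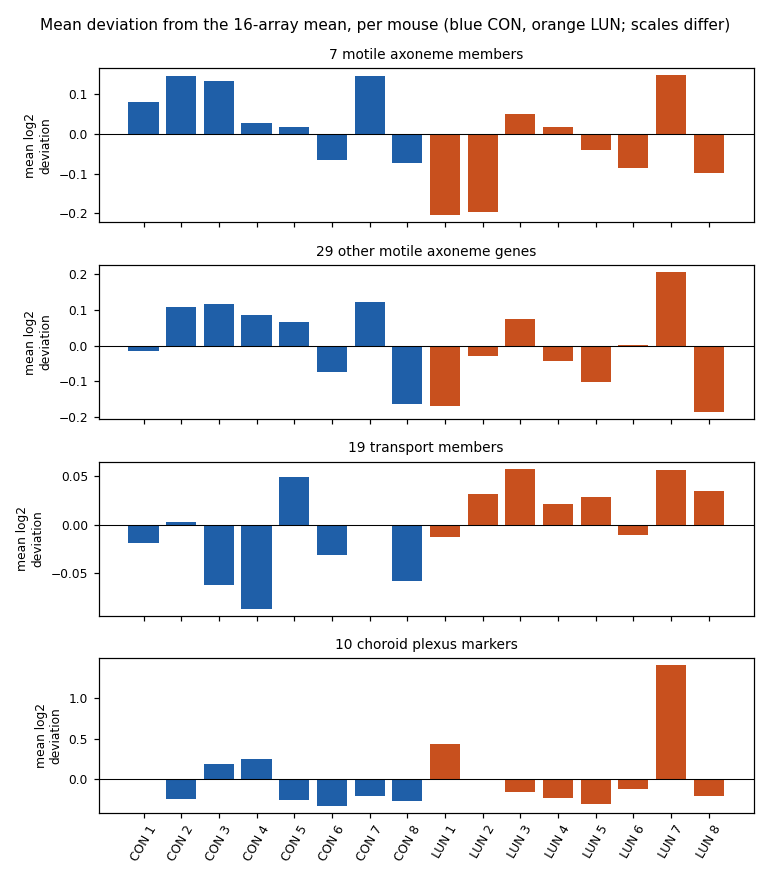
Mean log2 deviation from the average over 16 arrays (vertical axes) for the 7 motile members, 29 other motile axoneme genes, 19 transport members and 10 choroid plexus markers, one bar per array with CON in blue and LUN in orange. LUN 7 is highest in choroid genes at 1.40, and LUN 1 and LUN 2 are lowest in motile members at -0.21 and -0.20.

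Without LUN 7, 2 motile members fell, Rsph1 by 0.38 (adjusted p = 0.022) and Tekt1 by 0.24 (adjusted p = 0.043), while Rsph9 at -0.27 did not pass (adjusted p = 0.056, limma). Thalamic genes, which would mark the upper edge of the dissection, rose in 13 of 15 with a median of 1.15. Of these, Synpo2 and Lef1 were detected on 2 and 3 CON arrays but on 8 LUN arrays each. They thus met the detection filter mainly through LUN mice, where they were high. With detection required on all 16 arrays 11 thalamic genes rose. The largest rises were in Slc17a7 (2.20), Prkcd (1.78), Tnnt1 (1.56), Gbx2 (1.51), Ramp3 (1.40), Shox2 (1.36), Tcf7l2 (1.20) and Ntng1 (1.15). Many of them were listed by the study from these samples and are no independent evidence. Their mean level was 7.13 to 9.23 in CON mice and 8.84 to 9.24 in LUN mice, and their score was 0.74 in CON 4 and 0.31 in CON 8 against -1.36 to -0.34 in the other CON mice. Without CON 4 and CON 8, 2 motile members fell, Rsph9 by 0.34 (adjusted p = 0.0061) and Rsph1 by 0.33 (adjusted p = 0.047), and the Bbs1 call was lost as given above. The thalamic score was 0.35 to 0.76 in LUN mice, so without CON 4 and CON 8 every CON score lay below every LUN score. In that fit thalamic content and group cannot be told apart. The part of the dissection border in the cilium genes was not tested.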

How the data were processed

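Total RNA from the hypothalamus of 16 mice was labelled and hybridized to Illumina MouseRef-8 v2 arrays, 1 per mouse, with no pooling. The authors deposited intensity values from GenomeStudio, 1 bead summary signal per probe, with no background subtracted and no normalization between arrays. The detection p-value deposited beside each signal compares it with the negative controls of that array. The deposited log2 values were quantile-normalized by the authors in GeneSpring and centred probe by probe on the median over arrays.

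From the intensities, background was estimated here from the detection p-values and removed with limma 3.58.1 in R 4.3.3 (nec, offset 16), followed by quantile normalization and log2 transformation. Of 25697 probes, 14870 had a detection p-value under 0.05 on at least 8 arrays and were tested with lmFit and eBayes, group being the only term, with Benjamini-Hochberg adjustment at 0.05 over all of them. A gene was represented by its brightest tested probe, which gave 10244 genes. Groups were taken from the labels, and arrays carry the replicate numbers of the labels. The fit was tested on simulated data, in which 5.38% of the calls at the threshold were false. Promoter sequences are from RefSeq (GRCm38.p6).

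Members, gene lists and tests were chosen with earlier results of these data known. All tested members are named, and of the lists those past the threshold, up to 8 per list. Alternatives were other detection filters, scalings and offsets, the deposited log2 values, array weights, BeadChip as a block or alone, the replicate number as a block, arrays left out and the mean over probes.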

Additional observations from a re-analysis of the deposited data

Results flagged for a closer look

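Single mice stood far from the other 7 of their group in 4 of 74 groups of values examined, measured by the gap to the nearest mouse as a share of the group's range, and chance gives about 1 in 20. For Rsph9, LUN 2 was lowest at 7.21 and the next LUN mouse was at 7.56. For Tekt1, LUN 7 was highest at 6.59 and the next was at 6.25. For Bbs7, LUN 4 was highest at 8.99 and the next was at 8.74. For the score of choroid plexus markers, LUN 7 was highest at 1.40 and the next was at 0.44. Their causes were not tested.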

How the results depend on the processing

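The LUN arrays were dimmer, and the scaling between arrays set many directions. Quantile normalization left the median change of all genes at -0.0092, median scaling put it at -0.10 and no scaling at -0.26. Among all genes past the test 880 fell and 735 rose in the main setting, 2897 fell and 350 rose with median scaling, and 6158 fell and 122 rose with none. The share lower in LUN mice was thus 54.5%, 89.2% and 98.1%. Relative to the median of all genes the motile median was -0.12, -0.13 and -0.13 and the transport median 0.038, 0.0046 and 0.0046, while Rsph9 was -0.25, -0.28 and -0.28 and Ift57 0.53, 0.56 and 0.56.

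The motile median itself was -0.23 with median scaling and -0.39 with no scaling, and the transport median -0.098 and -0.25. With median scaling 4 motile and 6 transport members passed, 10 in all, and with no scaling 5 and 15, 20 in all. With no scaling the estimates of Dnaic1 (-0.23), Ift140 (-0.26), Ift81 (-0.27), Bbs2 (-0.25), Ift20 (-0.26), Ift172 (-0.26), Bbs9 (-0.23), Bbs7 (-0.23), Bbs5 (-0.22), Ift122 (-0.12), Ift88 (-0.13) and Ccdc39 (-0.094) turned negative, all but the last 3 also with median scaling, where Bbs12 turned to 0.00045, and Bbs1 was 0.11 (adjusted p = 0.32).

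The number of motile members past the test was 0 with probes detected on at least 1 array, with no detection filter and with the deposited log2 values. It was 2 with detection on all 16 arrays, with an offset of 50 and without CON 4 and CON 8. On BeadChip 1 alone and on BeadChip 2 alone, with fewer arrays, the counts of motile, transport and all members were 0, and on BeadChip 2 the medians were 0.0011 (motile) and -0.016 (transport). With single arrays left out, 0 to 2 motile and 2 to 3 transport members passed, 2 to 4 in all, with medians of -0.16 to -0.067 and 0.0034 to 0.040.

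Mice with the same replicate number showed no sign of pairing: same-number correlations ran from -0.29 to 0.098, and 1 of 8 numbers matched itself best. Such correlations cannot exclude a pairing by design. With the replicate block 1 motile and 3 transport members passed, with Rsph1 (adjusted p = 0.013) in place of Rsph9 (adjusted p = 0.085) and Ift122 (adjusted p = 0.047) added. Over all genes 637 then fell and 571 rose. Ift57 passed in every setting named here except each BeadChip alone. Probes near background, among them those of Ift57, Bbs1 and Foxj1, limit the size of change that can be measured. The cause of each shift other than scaling was not tested.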
